A study of Arabidopsis thaliana with 8 samples.

Results

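Transcript levels of the autophagy genes ATG8A to ATG8I and of the autophagy receptor gene NBR1 were followed in leaves of Arabidopsis thaliana, in a pif4 pif5 mutant and the wild type, with and without an earlier heat treatment. The genes were picked by locus identifier: they are 10 of the 34354 rows in the deposited table. All 10 were among the 16831 rows tested, which had at least 1 FPKM in at least 2 libraries. FPKM count sequenced fragments relative to transcript length and library size, so comparing levels between genes depends on the length used for each. For ATG8F the length behind the values was 1088 bp, against 1864 bp of exons in the annotation.

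The libraries form 4 groups of 2, named here mutant heat, mutant mock, wild-type heat and wild-type mock. The mutant carries the alleles pif4-2 and pif5-3 in the Col-0 background and the wild type is Col-0 itself. Plants grew on soil at 22 °C to an age of 3 weeks. Heat plants had 5 h at 42 °C and 3 days to recover. RNA came from rosette leaves number 3 and 4, whose edges had started to yellow according to the design text, which does not name the groups this applies to. Each genotype is 1 line, the number of plants behind a library is not given in the sources used here, and the design text calls the libraries of a group biological replicates. In whole leaves, fewer cells of a type and less RNA per cell cannot be told apart.

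Autophagy delivers cytoplasmic material to the vacuole inside membrane sacs called autophagosomes. ATG8 proteins are small ubiquitin-fold proteins that are joined through a glycine near their carboxyl end to the membrane lipid phosphatidylethanolamine. ATG4 proteases first remove any residues beyond that glycine, and ATG7 and ATG3 then act as the activating and conjugating enzymes. NBR1 is a cargo receptor: it binds ubiquitinated and aggregated proteins, binds ATG8 through a short motif, and is itself degraded along with its cargo. In Arabidopsis NBR1 is known for its part in tolerance of heat and in clearing proteins that aggregate under stress. PIF4 and PIF5 are bHLH-type transcription factors of light and temperature signalling.

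The coding ends of the ATG8 genes are shown because they separate the members by the processing they need. They are the last 48 coding bases including the stop codon, on the coding strand, from the TAIR10.1 genome with its RefSeq annotation. Capitals mark the codon of the conserved glycine.
ATG8A: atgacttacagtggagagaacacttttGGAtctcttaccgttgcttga
ATG8B: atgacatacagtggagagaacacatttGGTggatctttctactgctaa
ATG8C: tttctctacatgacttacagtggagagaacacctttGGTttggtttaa
ATG8D: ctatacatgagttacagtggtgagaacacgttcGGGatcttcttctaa
ATG8E: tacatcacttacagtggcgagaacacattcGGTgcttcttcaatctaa
ATG8F: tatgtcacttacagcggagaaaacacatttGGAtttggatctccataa
ATG8G: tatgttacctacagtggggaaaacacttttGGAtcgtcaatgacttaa
ATG8H: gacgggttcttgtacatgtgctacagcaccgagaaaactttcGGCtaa
ATG8I: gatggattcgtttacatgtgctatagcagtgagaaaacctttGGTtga
In ATG8H and ATG8I the stop codon follows the glycine codon directly, so their proteins need no trimming. In ATG8A and ATG8B 5 codons follow it, in ATG8E, ATG8F and ATG8G 4, in ATG8D 3 and in ATG8C 2. An annotated shorter ATG8C transcript ends without it.

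The ATG8-binding motif of NBR1 lies at codons 661 to 664 of its 704, near the end of the protein. It has a tryptophan and an isoleucine codon, marked in capitals, separated by 2 others.
NBR1: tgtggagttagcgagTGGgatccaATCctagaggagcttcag

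The coding sequences of the 9 ATG8 genes were 56.9% to 84.78% identical over their 36 pairs. The longest run shared by any pair was 53 bases in ATG8A and ATG8B, shown because reads that fall inside it cannot be assigned to either gene from the sequence.
ATG8A and ATG8B: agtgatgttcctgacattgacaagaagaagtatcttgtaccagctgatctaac
No other pair shared 50 bases or more.

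In TAIR10.1 coordinates NBR1 (AT4G24690) spans chr4:12741032-12744670 on the plus strand with 7 exons, and its FPKM rests on a length of 2742 bp. ATG8H (AT3G06420) spans chr3:1954990-1956397 on the minus strand with 5 exons and 712 bp. ATG8A (AT4G21980, APG8A in the annotation) spans chr4:11655562-11657034 on the plus strand. ATG8B (AT4G04620) spans chr4:2328442-2330590 on the minus strand. ATG8E (AT2G45170) spans chr2:18624264-18625791 on the plus strand. ATG8C (AT1G62040) spans chr1:22932760-22934549 on the plus strand and ATG8D (AT2G05630) chr2:2082894-2084905 on the minus strand. ATG8F (AT4G16520) spans chr4:9306339-9308538 on the minus strand and ATG8G (AT3G60640) chr3:22415751-22417548 on the plus strand. ATG8I (AT3G15580), which the annotation calls APG8H, spans chr3:5273526-5275095 on the minus strand. Exons of ATG8A overlap those of AT4G21990 on the opposite strand by 27 bp, and that gene reached 75.2 FPKM. Exons of NBR1 overlap those of AT4G24700 on the opposite strand by 101 bp, and that gene stayed at or below 3.70 FPKM. Whether the counting used strand is not given in the sources used here.

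Depth recovered from the steps of the FPKM values was 16852240 to 29535916 reads per library, and the members rested on 131 reads (ATG8H, lowest library) to 15879 reads (NBR1, highest library). PIF4 had 25.6 and 23.8 FPKM in mutant heat, 33.5 and 33.6 in mutant mock, 97.2 and 100.8 in wild-type heat, and 131 and 131 in wild-type mock. PIF5 had 4.74 and 3.98 FPKM in mutant heat, 5.60 and 4.70 in mutant mock, 54.3 and 54.9 in wild-type heat, and 63.2 and 66.4 in wild-type mock. Both were lower in every mutant library than in every wild-type library. All 3 leaf mesophyll markers were abundant, RBCS1A at 6252 to 8830 FPKM, while of the 4 root markers COBL9, EXPA7 and RHD6 were at 0 in all 8 libraries, WOX5 stayed at or below 0.43 FPKM, and the floral markers AG and AP3 stayed at or below 0.33 FPKM. The mesophyll markers were themselves higher after heat in both genotypes, by log2 changes of 0.43 to 0.56 in the mutant and 0.23 to 0.48 in the wild type. In the interaction 1 of the 3 mesophyll markers, CA1, was higher (0.33). Lower there were 1 of the 3 guard cell markers, KAT1 (-0.53), and 1 of the 3 phloem markers, SWEET11 (-0.26). In each of these lists the 2 other markers were not called. The 2 other phloem markers were positive, as was 1 guard cell marker. After heat in the wild type KAT1 (0.28) and SWEET11 (0.36) were higher and the phloem marker SUC2 (-0.20) was lower; no guard cell or phloem marker was called for heat in the mutant. SWEET11 was higher in the mutant than in the wild type after heat (0.35) and in mock (0.60). KAT1 (-0.35) and RCA (-0.21) were lower in the mutant after heat, and CA1 (-0.28) was lower in mock. After heat the 2 other mesophyll markers were positive and not called in this comparison of genotypes. The part of these markers in the results was not tested.

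Changes across all genes moved with gene length in several comparisons. Over the 16831 tested genes, Spearman's correlation between length and log2 change was -0.456 for heat in the mutant and 0.066 for heat in the wild type. For mutant against wild type it was -0.3 after heat and 0.185 in mock, and for the interaction -0.316. In the mutant after heat, genes of 2500 to 3000 bp had a median log2 change of -0.17 and 26.3% of them were called lower, while genes of 700 to 1200 bp had a median of 0.04 and 3.32% were called lower. NBR1 falls in the first of these classes, and the ATG8 genes, at 712 to 1149 bp, in the second. Each result is therefore given as deposited, and where it matters also after a length curve was removed from each library.

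**Figure D1:**
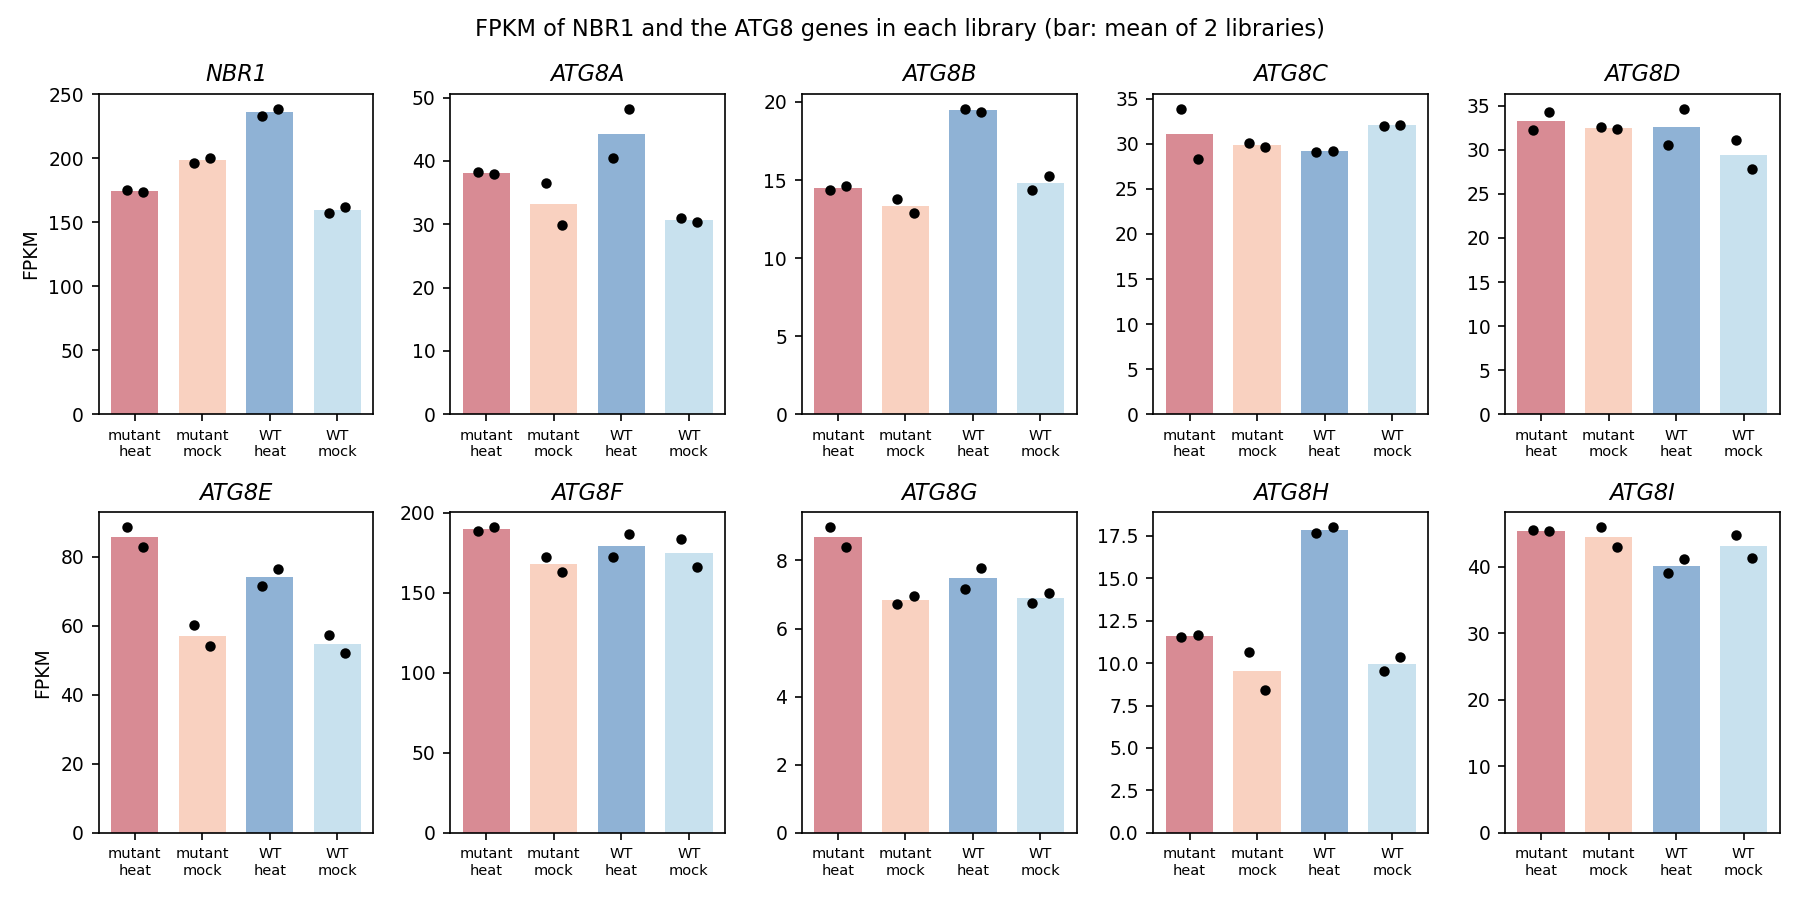
FPKM of NBR1 and of the 9 ATG8 genes in each library, by group from left to right: mutant heat, mutant mock, wild-type (WT) heat and wild-type mock. Points are single libraries and bars the mean of 2; each vertical axis starts at 0 and has its own scale. NBR1 and ATG8H were highest in wild-type heat, at 233 and 239 FPKM and at 17.7 and 18.0 FPKM, whereas ATG8E was highest in mutant heat.

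Of the members, NBR1 had the smallest p for a difference between the genotypes' responses to heat. It had 175 and 174 FPKM in mutant heat, 196 and 200.4 in mutant mock, 233 and 239 in wild-type heat, and 157 and 162 in wild-type mock. No group overlapped another: wild-type heat was highest, followed by mutant mock, mutant heat and wild-type mock. The means were 174 ± 1.22, 198 ± 3.08, 236 ± 3.80 and 160 ± 3.34 FPKM in mutant heat, mutant mock, wild-type heat and wild-type mock (SD, n = 2 each). The position of mutant heat above wild-type mock was not among the comparisons tested.

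NBR1 was called higher after heat in the wild type. After heat in the mutant it was called slightly lower as deposited, a call that several other fits did not keep. Changes are differences of log2(FPKM + 1) with their standard error; the added 1 makes the change of weakly expressed genes look smaller. Each p was adjusted by the Benjamini-Hochberg method over the 16831 tested genes after a limma fit, and a gene is called when it is below 0.05. The change was -0.18 ± 0.04 in the mutant (adjusted p = 0.00714) and 0.56 ± 0.04 in the wild type (adjusted p = 2.89e-07). The difference between these changes, mutant minus wild type, was -0.74 ± 0.05 (adjusted p = 1.46e-06, 95% interval -0.86 to -0.62), the 165th smallest p of all genes. Comparing genotypes directly, NBR1 was higher in mutant mock than in wild-type mock (0.31 ± 0.04, adjusted p = 0.000155) and lower in mutant heat than in wild-type heat (-0.43 ± 0.04, adjusted p = 4.87e-06).

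The NBR1 change of -0.18 in the mutant stood beside a median of -0.17 over genes of 2500 to 3000 bp. After removal of the length curve the heat change in the mutant was -0.0059 (adjusted p = 0.943), so this call was lost. The other 4 NBR1 results kept their call, at 0.53 for heat in the wild type, 0.21 for genotype in mock, -0.33 for genotype after heat and -0.54 for the interaction (adjusted p = 6.96e-06). The NBR1 call for heat in the mutant was also lost with median-of-ratios scaling (-0.11, adjusted p = 0.0874) and without an intensity trend (-0.18, adjusted p = 0.0695). It was lost as well when mutant heat replicate 2 (-0.18) or mutant mock replicate 2 (-0.17) was left out.

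**Figure D2:**
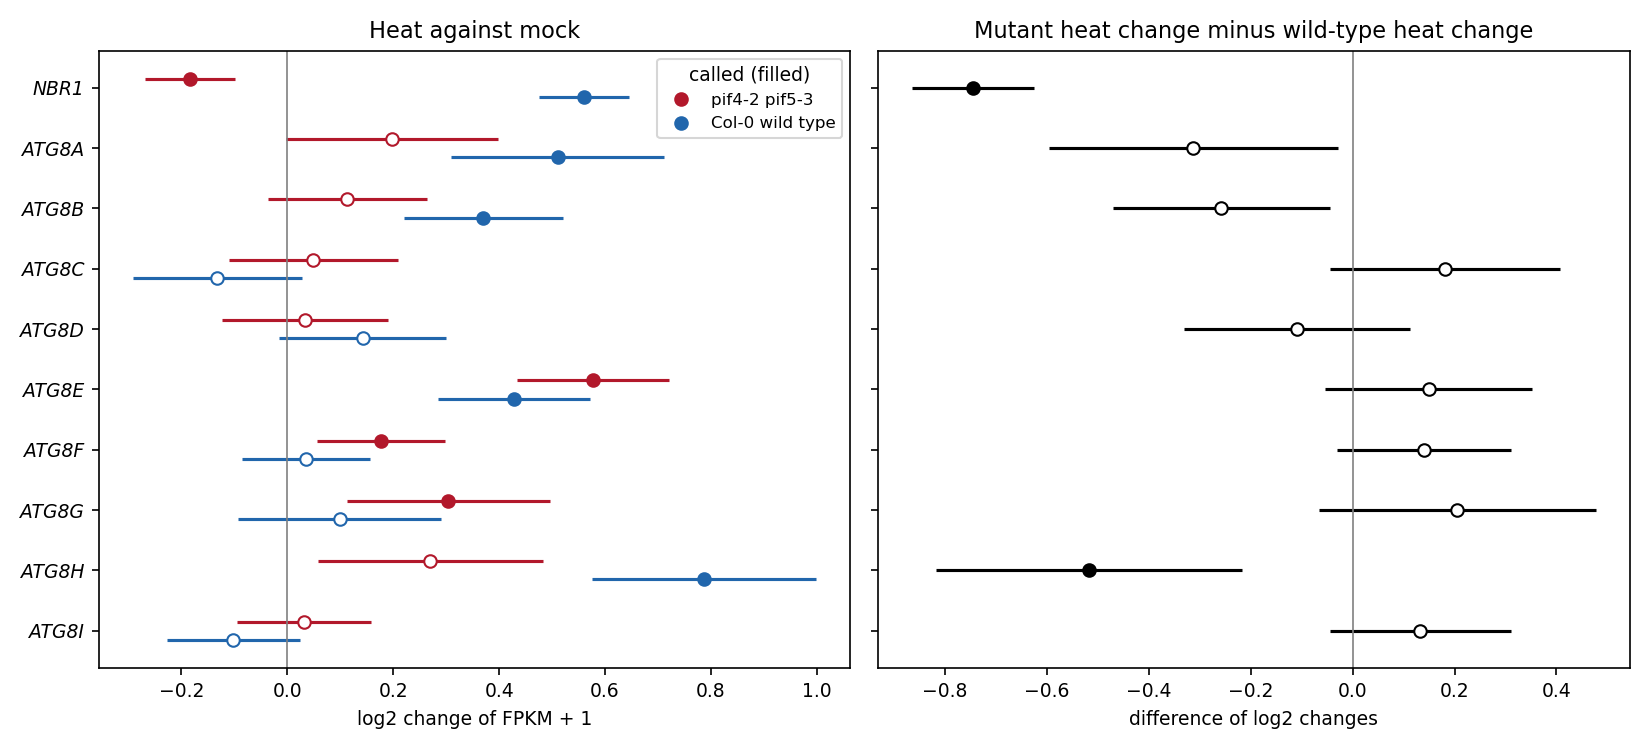
Left, change after heat on the log2(FPKM + 1) scale for each member in the mutant (red) and the wild type (blue); right, mutant heat change minus wild-type heat change. Points are estimates from limma, lines 95% intervals, and filled points are called at an adjusted p below 0.05. NBR1 and ATG8H lie left of 0 in the right panel, at -0.74 and -0.52, and are the members called there.

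**Figure D3:**
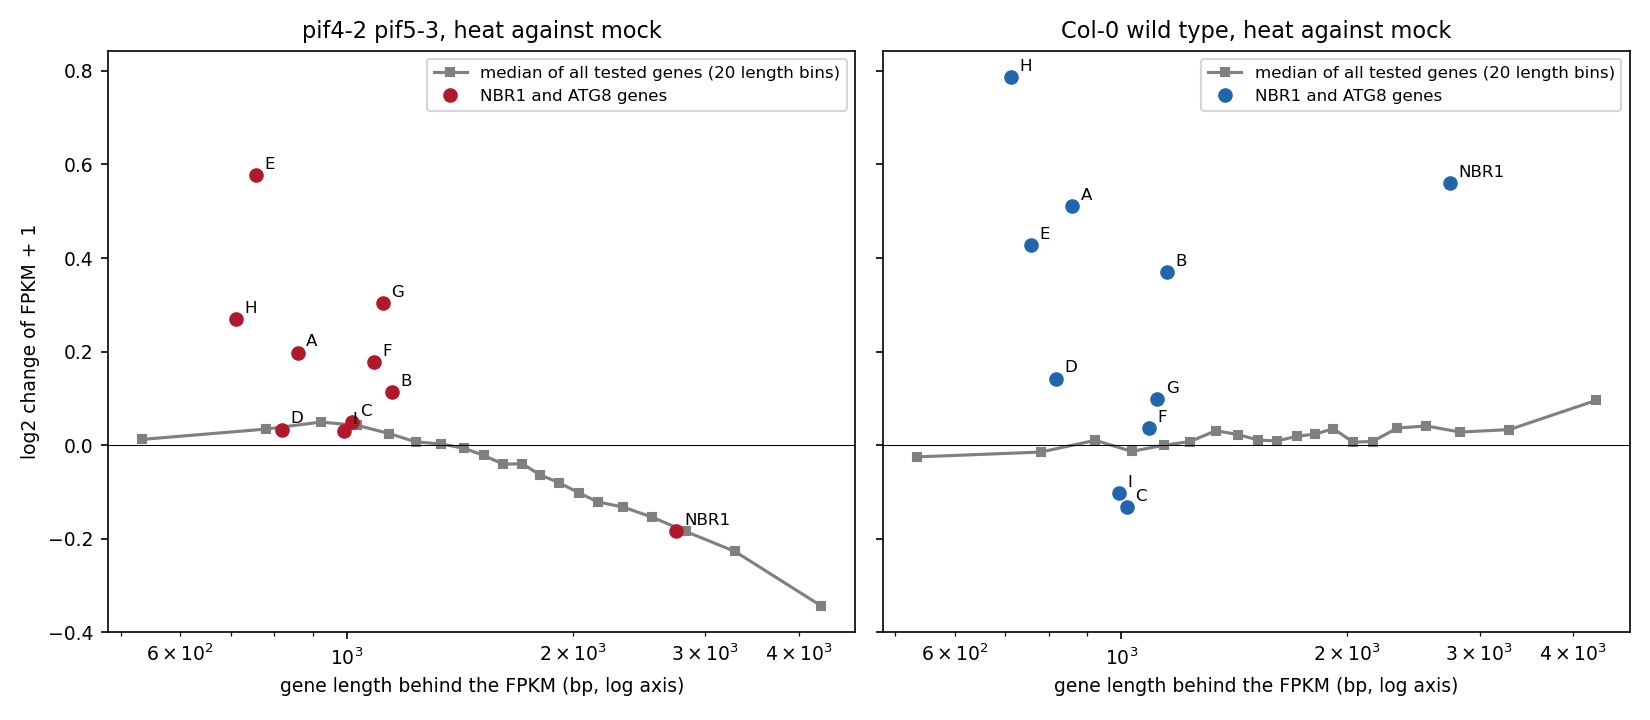
Change after heat against gene length (log axis) in the mutant, left, and the wild type, right. Grey squares are medians of all tested genes in 20 length classes, coloured points are members, with single letters for the ATG8 genes. In the mutant NBR1, at -0.18, sits on the falling median of genes of its length, and in the wild type, at 0.56, it lies above it.

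ATG8H, a member whose coding sequence ends at the glycine, showed the largest rise of the family after heat in the wild type. It had 11.6 and 11.7 FPKM in mutant heat, 10.7 and 8.40 in mutant mock, 17.7 and 18.0 in wild-type heat, and 9.53 and 10.3 in wild-type mock. Both wild-type heat libraries lay above all 6 others, and the mock libraries of the genotypes overlapped. The heat change in the mutant was 0.27 ± 0.10 and did not pass the threshold (adjusted p = 0.0705), although both mutant heat libraries lay above both mutant mock libraries. In the wild type it was 0.79 ± 0.10 (adjusted p = 4.43e-05). The difference between these changes was -0.52 ± 0.14 (adjusted p = 0.0137), and mutant heat was below wild-type heat by a log2 change of -0.58 ± 0.10 (adjusted p = 0.000788). With the length curve removed the difference was -0.57 (adjusted p = 0.00727), and with quantile scaling it was -0.37 and not called (adjusted p = 0.0705). The heat change in the mutant was itself called with median-of-ratios scaling (0.34, adjusted p = 0.0294), with quantile scaling (0.35, adjusted p = 0.0331) and with mutant mock replicate 1 left out (0.42, adjusted p = 0.0148). ATG8H was a low member, with 131 to 269 reads per library.

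ATG8A and ATG8B, which form a pair close in sequence, also rose after heat in the wild type. ATG8A had 38.2 and 37.9 FPKM in mutant heat, 36.6 and 29.9 in mutant mock, 40.4 and 48.2 in wild-type heat, and 31.1 and 30.3 in wild-type mock. In both genotypes the heat libraries lay above the mock libraries. Its change was 0.20 ± 0.09 in the mutant (adjusted p = 0.149), against 0.51 ± 0.09 in the wild type (adjusted p = 0.000821). The change in the mutant was called without mutant mock replicate 1 (0.34, adjusted p = 0.0308).

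ATG8B had 14.3 and 14.6 FPKM in mutant heat, 13.8 and 12.9 in mutant mock, 19.6 and 19.4 in wild-type heat, and 14.4 and 15.3 in wild-type mock. As for ATG8H, both wild-type heat libraries stood above the other 6 libraries. Its change was 0.11 ± 0.07 in the mutant (adjusted p = 0.27), against 0.37 ± 0.07 in the wild type (adjusted p = 0.00103). Mutant heat was below wild-type heat by -0.40 ± 0.07 (adjusted p = 0.000882).

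The differences between the genotypes' heat changes did not pass for either of these genes, at -0.31 ± 0.13 for ATG8A (adjusted p = 0.0874) and -0.26 ± 0.10 for ATG8B (adjusted p = 0.0625). With the length curve removed both were called, at -0.37 for ATG8A (adjusted p = 0.0316) and -0.29 for ATG8B (adjusted p = 0.0403). For ATG8A the difference was also called in the fit that left out mutant mock replicate 2 (-0.45, adjusted p = 0.0162) and in the fit that left out wild-type heat replicate 1 (-0.44, adjusted p = 0.0357). Mutant heat against wild-type heat was -0.21 ± 0.09 for ATG8A and not called (adjusted p = 0.113), but was called with the length curve removed (-0.29, adjusted p = 0.0197) and without wild-type heat replicate 1 (-0.33, adjusted p = 0.0442). Because of the shared stretch of 53 bases and, for ATG8A, the overlapping gene on the other strand, the separate values of this pair are uncertain to that extent.

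ATG8E was the member called higher after heat in both genotypes. For ATG8A, ATG8B, ATG8G and ATG8H too, the heat libraries lay above the mock libraries within each genotype, without a call in both. ATG8E had 88.5 and 82.7 FPKM in mutant heat, 60.2 and 53.98 in mutant mock, 71.6 and 76.3 in wild-type heat, and 57.3 and 52.2 in wild-type mock. Every heat library exceeded every mock library, and the mutant heat libraries were the highest. The change was 0.58 ± 0.07 in the mutant (adjusted p = 0.000216) and 0.43 ± 0.07 in the wild type (adjusted p = 0.000248). The difference between them was 0.15 ± 0.09 and not called (adjusted p = 0.246, 95% interval -0.05 to 0.35). Mutant heat was above wild-type heat by 0.21 ± 0.07 (adjusted p = 0.0329), a call lost with the length curve removed (0.13, adjusted p = 0.0759) or when mutant heat replicate 1 or either wild-type heat library was left out (adjusted p = 0.0588 to 0.21).

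ATG8F and ATG8G are the most and the least abundant of the 9 ATG8 genes, and both were called higher after heat in the mutant by a narrow margin. ATG8F had 189 and 191 FPKM in mutant heat, 172 and 163 in mutant mock, 172 and 187 in wild-type heat, and 184 and 166 in wild-type mock. The mutant's heat libraries lay above its mock libraries, while those of the wild type overlapped. Its change was 0.18 ± 0.06 in the mutant (adjusted p = 0.0425), against 0.04 ± 0.06 in the wild type (adjusted p = 0.647).

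ATG8G had 8.97 and 8.39 FPKM in mutant heat, 6.73 and 6.95 in mutant mock, 7.17 and 7.77 in wild-type heat, and 6.76 and 7.06 in wild-type mock, which is 153 to 222 reads per library. In both genotypes its heat libraries lay above its mock libraries. Its change was 0.30 ± 0.09 in the mutant (adjusted p = 0.0307), against 0.10 ± 0.09 in the wild type (adjusted p = 0.409). Both calls in the mutant were lost with any of the 4 mutant libraries left out (adjusted p = 0.0529 to 0.222 for ATG8F and 0.0758 to 0.15 for ATG8G) and with the length curve removed (adjusted p = 0.0551 and 0.0584). The difference between the genotypes' heat changes was not called, at 0.14 ± 0.08 for ATG8F (adjusted p = 0.195) and 0.21 ± 0.12 for ATG8G (adjusted p = 0.233). For ATG8F it was called with median-of-ratios scaling (0.24, adjusted p = 0.0461) and without wild-type mock replicate 2 (0.21, adjusted p = 0.0477).

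ATG8C, ATG8D and ATG8I had no call for heat in either genotype. Over the 8 libraries ATG8C ranged between 28.3 and 33.9 FPKM, ATG8D between 27.8 and 34.6 FPKM and ATG8I between 39.0 and 45.9 FPKM. In the mutant the 95% interval of the heat change was -0.11 to 0.21 for ATG8C, -0.12 to 0.19 for ATG8D and -0.09 to 0.16 for ATG8I. In the wild type it was -0.29 to 0.03 for ATG8C, -0.01 to 0.30 for ATG8D and -0.23 to 0.02 for ATG8I. Without mutant heat replicate 2, the ATG8C difference between the genotypes' heat changes was called (0.31, adjusted p = 0.0234), against 0.18 ± 0.10 with it (adjusted p = 0.205). ATG8I is the other member without codons beyond the glycine. Its libraries were at 45.5 and 45.3 FPKM in mutant heat and at 39.0 and 41.1 FPKM in wild-type heat, a difference of 0.18 ± 0.06 (adjusted p = 0.0384) that was lost with the length curve removed (0.11, adjusted p = 0.11) and without any single library of these 2 groups (adjusted p = 0.0649 to 0.215).

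Counted over the set, 3 of the 10 members were higher and 1 lower after heat in the mutant, against 6.28% of all tested genes higher and 13.9% lower. In the wild type 5 members were higher and none lower after heat, against 21.5% and 16.9% of all genes. In mock, NBR1 alone was higher in the mutant and no member was lower, against 13% and 7.69%. After heat 2 members were higher and 3 lower in the mutant than in the wild type, against 11% and 17.6%. In the interaction no member was higher and 2 were lower, against 10.3% and 21.6%, which is a share close to that of all genes. The median change of the members was 0.14 for heat in the mutant, against -0.06 over all genes. It was 0.26 for heat in the wild type, against 0.02, and 0.01 for the interaction, against -0.10. These medians include NBR1, which is longer. The 9 ATG8 genes alone had medians of 0.18, 0.14 and 0.13 in these comparisons. Genes of 700 to 1200 bp, the length class of the ATG8 genes, had medians of 0.04, -0.003 and 0.03 there. In that class 11.5% were higher and 3.32% lower for heat in the mutant, and 17% were higher and 11.2% lower in the interaction. These comparisons share libraries and are not independent of each other.

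Added over the 9 genes, ATG8 transcripts amounted to 462 and 454 FPKM in mutant heat, 409 and 380.3 in mutant mock, 427 and 461 in wild-type heat, and 411 and 383 in wild-type mock. Both heat groups lay above both mock groups, and the genotypes overlapped within mock and after heat. The group means were 458 ± 5.59, 395 ± 20.3, 444 ± 24.1 and 397 ± 19.8 FPKM in mutant heat, mutant mock, wild-type heat and wild-type mock (SD, n = 2 each). ATG8F made up 41.4%, 42.6%, 40.4% and 44.1% of the sum in these groups and ATG8E 18.7%, 14.5%, 16.7% and 13.8%, which ranked them first and next in every group. ATG8B, ATG8H and ATG8G ranked lowest in all groups, with ATG8H at 2.54%, 2.41%, 4.02% and 2.51%. Between them, ATG8A, ATG8C, ATG8D and ATG8I had 6.57% to 11.3% each and exchanged places between groups. NBR1 FPKM amounted to 0.381, 0.503, 0.531 and 0.403 of the summed ATG8 FPKM in mutant heat, mutant mock, wild-type heat and wild-type mock, so that the ratio was lower with heat in the mutant and higher with heat in the wild type. No test was made on the sum or the ratio. NBR1 rests on 2742 bp and the ATG8 genes on 712 to 1149 bp, and changes after heat in the mutant moved with length. With the length curve removed NBR1 itself changed by -0.0059 after heat in the mutant. The part of length in the ratio was not tested.

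The rest of the autophagy pathway was read from 6 lists with 48 genes, of which 46 passed the filter on low values. In the mutant after heat none of these 46 genes was higher and 7 were lower, against 6.28% and 13.9% of all genes, so the share called lower was near that of all genes. Their median change was -0.11, against -0.06 over all genes. They were the lipid transfer protein gene ATG2 (-0.42 ± 0.09), ATG9 (-0.24 ± 0.08) and ATG18G (-0.28 ± 0.07) of membrane delivery, VPS15 (-0.41 ± 0.08) of the phosphatidylinositol 3-kinase complex, FREE1 (-0.26 ± 0.06), and the growth kinase gene TOR (-0.51 ± 0.11) with its partner RAPTOR1B (-0.41 ± 0.09). Of these, TOR spans 8063 bp, ATG2 6156 bp, VPS15 5277 bp and RAPTOR1B 5045 bp. ATG18G spans 4183 bp, ATG9 3523 bp and FREE1 2488 bp, against a median of 1665 bp over all tested genes. The part of length in these calls was not tested. With the length curve removed none of the 7 kept its call, and ATG5, of ATG8 conjugation, was the gene called, as higher (0.41, adjusted p = 0.0179). Fewer of the 46 were called with mutant mock replicate 2 or mutant heat replicate 1 left out, as were fewer of all genes.

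After heat in the wild type 6 of the 46 were higher and none lower, a smaller share than the 21.5% of all genes called higher. ATG1A, a kinase that starts autophagosome formation, had 16.8 and 16.8 FPKM in mutant heat, 17.6 and 18.8 in mutant mock, 22.4 and 21.6 in wild-type heat, and 16.0 and 17.2 in wild-type mock. Its wild-type heat libraries stood above all others, with a change of 0.39 ± 0.07 (adjusted p = 0.000594). ATG101, a subunit of the same complex, rose by 0.29 ± 0.09 (adjusted p = 0.025). ATG6 and VPS15 of the phosphatidylinositol 3-kinase complex rose by 0.28 ± 0.07 and 0.25 ± 0.08 (adjusted p = 0.00876 and 0.0238). With the length curve removed VPS15 was at 0.14 and not called (adjusted p = 0.188), and the other 5 stayed called. ATG12A of ATG8 conjugation (0.24, adjusted p = 0.0366) and DSK2B of the receptors and adaptors (0.13, adjusted p = 0.046) were then called as well. ATG18H, a lipid-binding protein of the growing membrane, rose by 0.35 ± 0.08 (adjusted p = 0.00605), and ATI2, another ATG8-binding protein, by 0.28 ± 0.05 (adjusted p = 0.000437). As deposited none of the 9 genes of ATG8 conjugation was called, the smallest p being that of ATG12A (0.22 ± 0.10, adjusted p = 0.113). Neither was any of the 5 TOR and SnRK1 regulators.

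For genotype in mock 3 of the 46 were higher in the mutant and none lower, smaller shares than the 13% and 7.69% of all genes. The 3 were VPS15 (0.34 ± 0.08), the exocyst subunit gene EXO70B1 (0.25 ± 0.07) and ATG6 (0.23 ± 0.07). None kept its call with the length curve removed. None of the 46 was called without wild-type mock replicate 1, a fit in which fewer of all genes were called too. After heat 1 was higher and 11 lower in the mutant than in the wild type, against 11% and 17.6% of all genes. EXO70B1 was the higher gene, with 39.0 and 34.3 FPKM in mutant heat against 26.9 and 28.8 FPKM in wild-type heat (0.38 ± 0.07, adjusted p = 0.00116). Among the lower genes were ATG1A (-0.37 ± 0.07), RAPTOR1B (-0.42 ± 0.09), VPS15 (-0.32 ± 0.08) and ATI2 (-0.18 ± 0.05). EXO70B1, ATG1A, RAPTOR1B and ATI2 were called also with the length curve removed. ATG101 (-0.30, adjusted p = 0.04) and VPS38 (0.33, adjusted p = 0.0336) were called there and not as deposited. Fewer of the 46 were called without mutant heat replicate 1 or without either wild-type heat replicate, and fewer of all genes were called in those fits too.

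In the interaction none of the 46 was higher and 15 were lower, against 10.3% and 21.6% of all genes, with a median of -0.21 against -0.10 over all genes. By list, 1 of 9 conjugation genes (ATG7, -0.41), 3 of 7 ATG1 kinase complex genes (ATG1A, ATG11 and ATG13B, -0.49, -0.47 and -0.38), 4 of 9 membrane delivery genes (led by ATG18H, ATG18G and ATG2, -0.50, -0.42 and -0.43), 2 of 6 phosphatidylinositol 3-kinase genes (VPS15 and ATG6, -0.67 and -0.41), 3 of 10 receptors and adaptors (FREE1, DSK2B and DSK2A, -0.36, -0.25 and -0.25) and 2 of 5 TOR and SnRK1 regulators (TOR and RAPTOR1B, -0.72 and -0.51) were called. The 15 genes called had a median length of 2488 bp, the 31 others 1892 bp and all tested genes 1665 bp. What part length had in the interaction calls was not tested. With the length curve removed the median of the 46 was -0.04, and 3 genes were called: ATG1A (-0.34, adjusted p = 0.00964) and ATG6 (-0.30, adjusted p = 0.044) as lower and EXO70B1 (0.29, adjusted p = 0.0461) as higher. As deposited, fewer of the 46 were called with any single library left out, and fewer of all genes were called in those fits too. The pathway count was lowest without mutant mock replicate 2, wild-type heat replicate 1 or wild-type mock replicate 1.

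**Figure D4:**
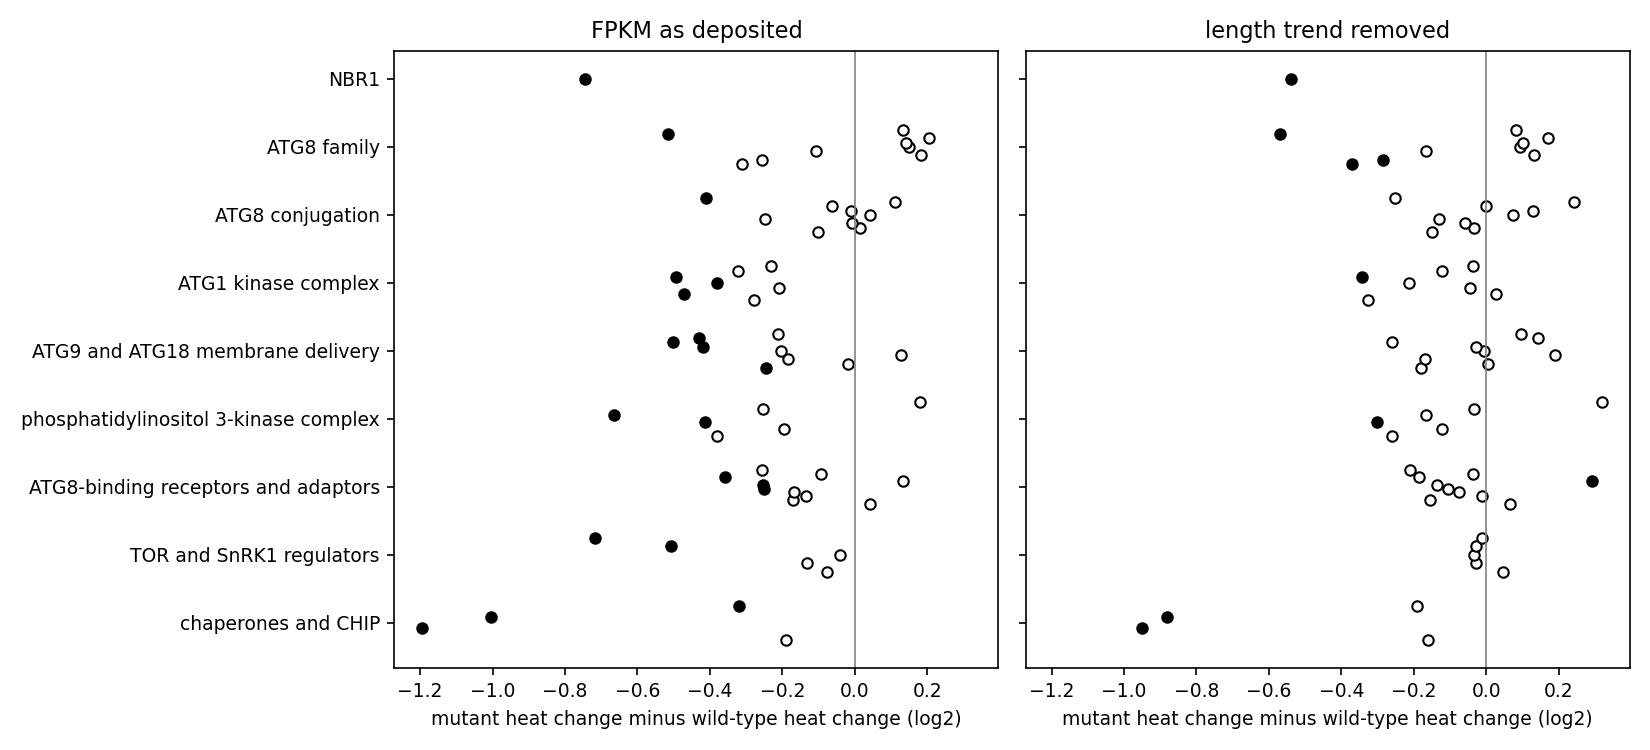
Mutant heat change minus wild-type heat change (log2) of each gene, by list, as deposited on the left and with the length curve removed on the right; filled points are called at an adjusted p below 0.05. As deposited 15 of the 46 genes of the 6 pathway lists are called and all of them lie below 0; with the length curve removed 3 are called, whereas NBR1 stays called at -0.54.

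Chaperone genes were read as a list of 4, which encode the disaggregase HSP101, the cytosolic chaperone HSP90-1, the HSP90-binding immunophilin ROF1 and the ubiquitin ligase CHIP. HSP101 had 1.70 and 1.78 FPKM in mutant heat, 2.06 and 2.59 in mutant mock, 4.36 and 4.84 in wild-type heat, and 1.90 and 2.02 in wild-type mock. HSP90-1 had 9.86 and 10.1 FPKM in mutant heat, 11.3 and 10.8 in mutant mock, 18.1 and 16.9 in wild-type heat, and 8.58 and 9.65 in wild-type mock. For both genes the wild-type heat libraries stood above the other 6, as they did for NBR1, ATG8A, ATG8B and ATG8H. The difference between the genotypes' heat changes was -1.20 ± 0.17 for HSP101 (adjusted p = 0.000302) and -1.004 ± 0.12 for HSP90-1 (adjusted p = 5.28e-05), and both were called with the length curve removed (-0.95 and -0.88). ROF1 was lower after heat in the mutant (-0.37 ± 0.07, adjusted p = 0.00516), as it was with the length curve removed (-0.25, adjusted p = 0.0345), and CHIP was higher after heat in the wild type (0.36 ± 0.09, adjusted p = 0.00715). In the interaction ROF1 was called at -0.32 (adjusted p = 0.0323), but not with the length curve removed (-0.19, adjusted p = 0.171). CHIP was not called there (-0.19, adjusted p = 0.275).

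The genes whose pattern over the 8 libraries was most like that of NBR1, by Pearson's r of log2(FPKM + 1) among 5681 genes with a symbol and a mean of at least 5 FPKM, were KNAT3 (r = 0.9908), LOS2 (0.9892), FRO3 (0.9875), iPGAM2 (0.9875) and ATSYTF (0.9851). KNAT3 encodes a homeobox transcription factor, LOS2 an enolase, FRO3 a ferric reductase and iPGAM2 a phosphoglycerate mutase. LOS2, for example, had 128 and 129.8 FPKM in mutant heat, 142 and 147 in mutant mock, 179 and 173 in wild-type heat, and 108 and 116 in wild-type mock, the same order of groups as NBR1. The genes most like ATG8H were CYTC-1 (r = 0.9826), NRAMP1 (0.9805), OASA1 (0.9764), NYE1 (0.9751) and CYP71B19 (0.9747). CYTC-1 encodes cytochrome c, NRAMP1 a metal transporter, OASA1 a cysteine synthase and NYE1 the enzyme that removes magnesium from chlorophyll during its breakdown. The libraries share depth and normalization within a column, and the values describe these 8 libraries only.

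The 300 bases before each member's annotated start were searched on both strands for 2 forms of the heat shock element core, GAANNTTC and TTCNNGAA, and for the E-box forms CACGTG and CACATG bound by PIF proteins. GAANNTTC was present in 11.5% of 27443 such windows and in 1 member window, that of ATG8H, at bases -279 to -272. The ATG8H window overlaps the neighbouring gene AT3G06430, and whether the match lies inside that gene was not examined. TTCNNGAA was present in 9.38% of windows, CACGTG in 7.09% and CACATG in 13.1%, and none of these was found in a member window. The search covered these windows only, and a match is a run of letters, not a measured binding site.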

How the data were processed

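The authors deposited FPKM for 34354 rows in 8 libraries; TopHat, TopHat2, edgeR and the build TAIR10 are listed per the submitters' processing notes, without roles, and the libraries come from a directional kit per the labels' protocols. The counting program is not given in the sources used here. Whole reads (within 0.01) were recovered from the FPKM steps for all 16831 tested rows, which gave depth and gene lengths; 1 read at 1500 bp was worth 0.0226 to 0.0396 FPKM. Replicates differed beyond sampling noise (mean chi-square 2.14 to 5.51 per gene).

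Sample titles gave the groups. FPKM being no counts, log2(FPKM + 1) was fitted by group means over all 8 libraries (limma 3.58.1, R 4.3.3, eBayes with trend, 4 residual degrees of freedom, two-sided). The fit was run on simulated data whose changes were larger than those of the members and had no trend with length. That check therefore does not cover changes as small as theirs. The 5 comparisons set heat against mock within the mutant and within the wild type, the genotypes against each other within heat and within mock, and the 2 heat changes against each other (the interaction). Members and lists were chosen with earlier results of these data known. All members were named, and per list up to 3 called genes with the smallest p, or 1 as values; EXO70B1 in the interaction was named after its value was seen. Removing a lowess curve of each library's deviation over log10 length was added after the data were seen. Sequences and places come from TAIR10.1 with RefSeq annotation (Biopython 1.88), figures from matplotlib 3.10.9.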

Additional observations from a re-analysis of the deposited data

Results flagged for a closer look

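The change after heat differed between the genotypes for 2 of the 10 members and for 17 named genes of the other lists. This rests on the limma interaction test with an adjusted p below 0.05. By the same test 10.3% of all 16831 tested genes were higher and 21.6% lower. At most 3 genes per list are named, which leaves out ATG18A (-0.25). Each value is the mutant's heat change minus the wild type's on the log2(FPKM + 1) scale. NBR1 was at -0.74 and ATG8H at -0.52, and both stayed called with the length curve removed.

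Of the initiation genes ATG1A was at -0.49, ATG11 at -0.47 and ATG13B at -0.38. ATG7 was at -0.41, VPS15 at -0.67 and ATG6 at -0.41. ATG18H was at -0.50, ATG18G at -0.42 and ATG2 at -0.43. FREE1 was at -0.36, DSK2B at -0.25 and DSK2A at -0.25. TOR was at -0.72 and RAPTOR1B at -0.51. HSP101 was at -1.20, HSP90-1 at -1.004 and ROF1 at -0.32. Of these 17 genes ATG1A, ATG6, HSP101 and HSP90-1 were called with the length curve removed. DSK2A and DSK2B are neighbouring, closely related genes, and their separate values are uncertain to the extent that they share reads.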

How the results depend on the processing

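The number of members called was 5 for heat in the wild type and 1 for genotype in mock under every alternative run. As reported, 6468 and 3479 of all 16831 tested genes were called in these 2 comparisons. Without a filter 23543 genes were tested. For heat in the mutant 4 members were called as reported, 2 without a filter on low values, 2 without an intensity trend and 1 with the length curve removed. All genes called there numbered 3401, 2337, 2551 and 1897 in that order. For genotype after heat 5 members were called as reported, 3 without a filter and 3 without a trend, beside 4814, 4385 and 3988 of all genes. For the interaction 2 members were called as reported, 1 with quantile scaling and 4 with the length curve removed, beside 5371, 4718 and 4415 of all genes. With a library left out the counts ran from 1 to 4 for heat in the mutant, 3 to 5 for genotype after heat and 2 to 3 for the interaction, the lone sample of a group being assumed to vary like the others. The cause of these differences was not tested. No called member reversed its sign. Pathway genes called in the interaction numbered 15 of 46 as reported, 8 with median-of-ratios scaling, 7 with quantile scaling and 3 with the length curve removed. All genes called there numbered 5371, 4872, 4718 and 4415 of 16831 in that order. The pathway count was also lower in every fit with a library left out, as was the count over all genes. For genotype in mock pathway genes called numbered 3, and 8 with limma-voom on recovered reads, beside 3479 and 4496 of all genes.

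The replicate numbers did not pair the libraries (correlations of deviations -0.0277 to 0.186). With the replicate number as a block the members called were 2 in the interaction, 4 for heat in the mutant, 5 for genotype after heat, 1 for genotype in mock and 5 for heat in the wild type, as without it; pathway genes called for genotype in mock were 5 with the block. All genes called for heat in the mutant numbered 3401 as reported, 1897 with the length curve removed and 1453 to 3478 with a library left out. Depth limits ATG8H and ATG8G most, with 131 to 269 and 153 to 222 reads.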
